A study of Mus musculus with 6 samples.

Results

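The 9 genes studied here encode extracellular and membrane-bound inhibitors of BMP and activin signalling, namely *Chrd*, *Chrdl1*, *Twsg1*, *Nog*, *Grem1* and *Sostdc1*, whose proteins bind BMPs, *Fst* and *Fstl3*, whose proteins bind activins, and *Bambi*, which encodes a receptor-like membrane protein. They were picked by symbol, and all 9 were found among the 27179 genes of the count table. The cells were CD34hi and CD34lo fibroblasts, gated as Lin-CD24-Pdgfrα+ in the mammary glands of pubertal, 6-week-old females of the FVB/N strain (FVB/NJ in the study's methods), for which neither a treatment nor an engineered allele is named. Each of 3 pools of 2 mice gave 1 library of each population, so that the comparison rests on 3 CD34hi and 3 CD34lo libraries that share their mice pool by pool. Each library is an average over the cells of 2 mice. In such bulk RNA, more cells that express a gene and more RNA of it per cell cannot be told apart.

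BMPs and activins are secreted dimers that bring together type I and type II serine/threonine kinase receptors, after which BMPs act mainly through Smad1, Smad5 and Smad9 and activins through Smad2 and Smad3. The antagonists work outside the cell by covering the receptor-binding surfaces of the ligand, or, in the case of Bambi, by taking the place of a receptor that can signal. In the mammary gland, BMP4 in the embryonic mesenchyme takes part in forming the nipple skin, and the activin subunit gene *Inhbb* is needed for normal growth of the ducts.

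The total counted on genes was 28764779 to 52402410 per CD34lo library and 36740921 to 45958181 per CD34hi library. Levels are given as CPM, the counts scaled to the TMM-normalized total of each library. A total of 3 counts, taken as the detection floor, equalled 0.0553 to 0.108 CPM across the libraries, for counting error only. *Cd34*, the gene of the sorted surface protein, had 2571 ± 75.2 CPM (SD, n = 3) in CD34hi and 634 ± 158 CPM (SD, n = 3) in CD34lo fibroblasts. Fibroblast markers were abundant in both populations, with a summed level of *Dcn*, *Lum*, *Pdgfra*, *Col1a2* and *Igfbp5* of 28386 to 31856 CPM in CD34hi and 31503 to 36429 CPM in CD34lo libraries. Singly they differed, as *Igfbp5* was higher in CD34hi (8404 ± 936 against 767 ± 249 CPM, SD, n = 3). *Lum*, *Pdgfra* and *Col1a2* were higher in CD34lo, with log2 fold changes (CD34hi over CD34lo) of -1.28, -0.74 and -0.69, and *Dcn* (-0.34) did not pass the test given below. For other cell types, levels in brackets are sums over all genes of a list. Of these markers, 2 of 2 pericyte genes were higher in CD34lo (7.36 to 11.5 against 1.59 to 2.46 CPM). The same held for 1 of 2 endothelial genes (21.9 to 41.1 against 5.86 to 19.6 CPM). It also held for 1 of 4 muscle genes (3.50 to 3.88 against 1.27 to 1.57 CPM). Of 6 epithelial genes (68.8 to 69.7 against 34.7 to 41.1 CPM), *Acta2* and *Itga6* were higher in CD34lo. *Acta2* alone had 28.1 to 38.2 CPM in CD34lo and 3.23 to 3.24 CPM in CD34hi. *Epcam*, *Krt8*, *Krt18* and *Krt14* did not pass (log2 fold changes 0.31, 0.058, 0.13 and -0.22). Of 5 macrophage genes (27.3 to 48.6 against 2.57 to 3.20 CPM), *Fcgr2b* was higher in CD34lo. Its own level was 23.6 to 43.4 against 0.193 to 1.10 CPM. *Cd68* and *Fcgr1* did not pass, and *C1qa* and *Cd163* were not tested. Both keratinocyte genes were higher in CD34hi (14.3 to 19.9 against 3.60 to 7.12 CPM), and among the Schwann cell genes *Col20a1* was higher in CD34lo and *Mbp* in CD34hi (20.8 to 26.8 CPM in CD34lo and 42.1 to 52.1 CPM in CD34hi). No marker was at 0 in all libraries, and the part of these cells in the results was not tested.

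Between the populations, the antagonists moved in opposite directions. *Fst*, *Chrdl1* and *Chrd* were higher in CD34hi fibroblasts, *Fstl3* and *Nog* were higher in CD34lo fibroblasts, and *Bambi* and *Twsg1* did not pass the test. *Grem1* and *Sostdc1* were too low to be tested. Of the 7 antagonists tested, 3 were therefore called towards CD34hi and 2 towards CD34lo, with 0.05 as the limit for the adjusted p-value of the quasi-likelihood test of edgeR. Among all 15219 genes tested, 35.6% were called, 16.9% towards CD34hi and 18.7% towards CD34lo. With the mouse pool as a block, 4 antagonists were called towards CD34hi and 2 towards CD34lo, against 19.6% and 20.9% of all genes, or 40.5% in either direction. The libraries of the populations did not overlap for 6 of the 7 antagonists, and this held for 50.1% of all genes. The median log2 fold change of the 7 antagonists was 0.53, and that of all genes was -0.0064. Fold changes are CD34hi over CD34lo, and adjusted p-values come from this edgeR test with Benjamini-Hochberg adjustment over all genes.

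**Figure D1:**
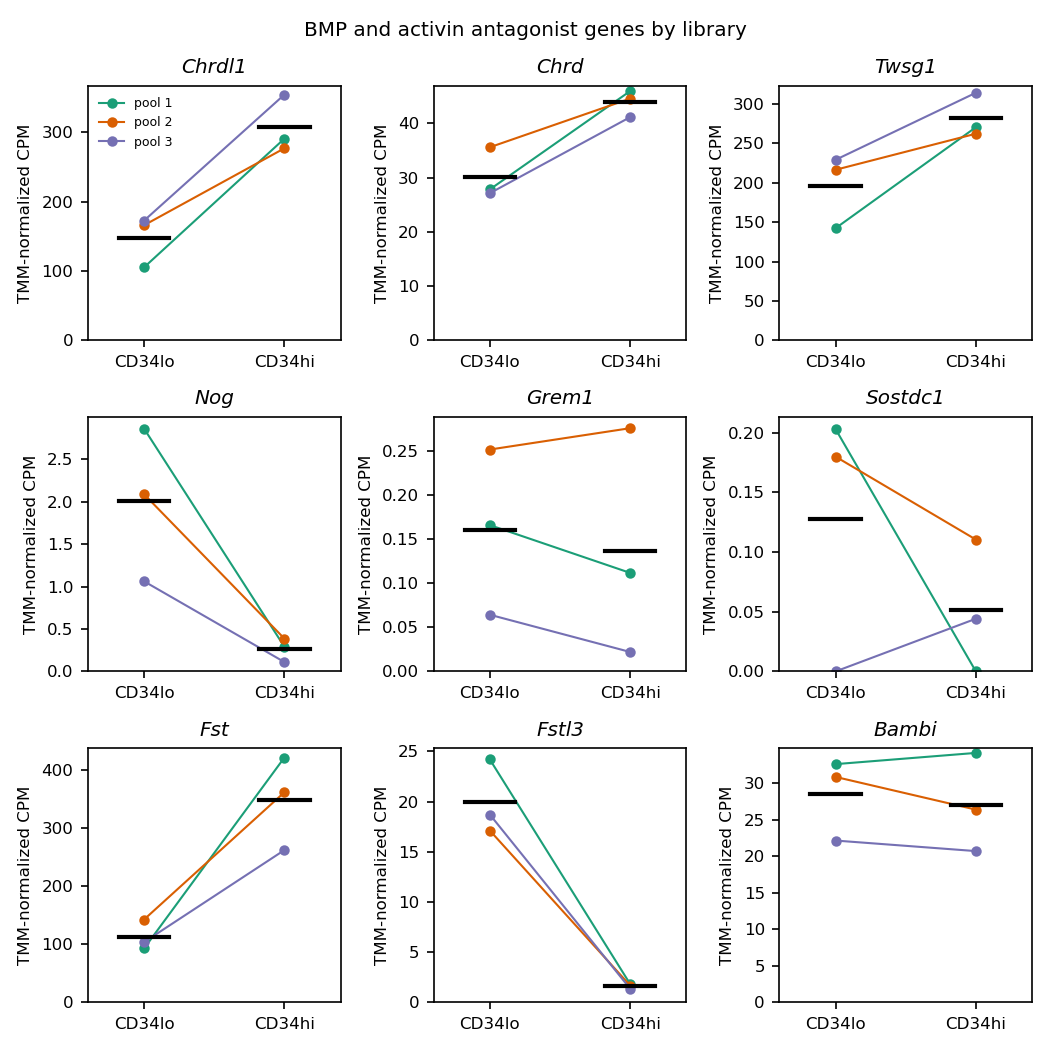
TMM-normalized CPM of the 9 antagonist genes, each panel with its own axis from 0, in CD34lo and CD34hi fibroblasts. Each line joins the 2 libraries of a mouse pool and the black bars are means. *Fst*, *Chrdl1*, *Chrd* and *Twsg1* were higher in CD34hi in all 3 pools, *Fstl3* and *Nog* were lower in all 3, and *Grem1* and *Sostdc1* stayed under 0.3 CPM.

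The stretch upstream of the transcription start is shown for *Fstl3*, which differed most, and for *Chrd* and *Twsg1*, which lay on the other side of the comparison. RefSeq (GRCm38.p6, the build of the count table) gave a promoter for 4 of the 9 genes, and these 3 are the tested ones. Each line holds the 250 bases before the start, 5′ to 3′ on the strand of the gene. Capitals mark matches, on either strand, to the Smad-binding core AGAC, to the GC-rich Smad1 and Smad5 element GGCGCC and to the TATA box TATAAA.
*Fstl3*, chr10:79777024-79777273, + strand: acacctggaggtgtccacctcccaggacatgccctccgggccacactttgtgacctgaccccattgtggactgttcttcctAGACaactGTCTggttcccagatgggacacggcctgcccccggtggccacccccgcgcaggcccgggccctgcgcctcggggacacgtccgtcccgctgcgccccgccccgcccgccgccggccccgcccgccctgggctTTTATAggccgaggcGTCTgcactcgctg
*Chrd*, chr16:20732877-20733126, + strand: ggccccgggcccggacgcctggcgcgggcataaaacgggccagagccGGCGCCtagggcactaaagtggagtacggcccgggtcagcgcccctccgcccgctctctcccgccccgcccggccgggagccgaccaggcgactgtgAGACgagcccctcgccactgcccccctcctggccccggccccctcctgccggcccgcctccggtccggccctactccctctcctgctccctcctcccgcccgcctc
*Twsg1*, chr17:65951188-65951437, - strand: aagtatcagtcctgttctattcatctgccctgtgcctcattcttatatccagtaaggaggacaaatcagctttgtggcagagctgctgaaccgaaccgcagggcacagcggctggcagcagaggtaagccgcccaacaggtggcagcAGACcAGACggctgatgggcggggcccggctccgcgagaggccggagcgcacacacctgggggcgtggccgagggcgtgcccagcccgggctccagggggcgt
The *Fstl3* window held a match to TATAAA on the strand opposite to the gene (TTTATA as printed), beginning 29 bases before the start. On either strand, 12.4% of all 32851 RefSeq promoter windows held this match, and neither of the other windows did. AGAC was found 3 times in *Fstl3*, 2 times in *Twsg1* and 1 time in *Chrd*, and it occurred in 82.9% of all windows. *Chrd* alone of the 3 held GGCGCC, beginning 203 bases before its start, as did 9.59% of all windows. GC content was 71.2% in *Fstl3*, 78% in *Chrd* and 64.4% in *Twsg1*, and the median of all windows was 52.4%. These matches describe the letters of the windows only, and no binding was measured.

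*Fst* (gene 14313, chromosome 13, 114452262 to 114458730) encodes follistatin, a secreted glycoprotein that holds activins almost irreversibly and also binds myostatin, GDF11 and some BMPs. It had 422, 362 and 262 CPM in the CD34hi libraries of pools 1, 2 and 3, and 93.0, 143 and 104 CPM in the CD34lo libraries. The lowest CD34hi library thus lay well above the highest CD34lo library. The means were 349 ± 80.6 CPM (SD, n = 3) in CD34hi and 113 ± 26.2 CPM (SD, n = 3) in CD34lo, which is a 3.08-fold difference (log2 fold change 1.62 ± 0.22 (standard error), adjusted p = 0.000556 in edgeR). Within the pools, the log2 difference was 2.18, 1.34 and 1.34, so that it was largest in pool 1, where the CD34hi library was the highest and the CD34lo library the lowest of the series. Of all genes tested, 12.8% had a larger absolute log2 fold change than *Fst*.

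*Fstl3* (gene 83554, chromosome 10, 79777274 to 79782630) encodes follistatin-like 3, a smaller relative of follistatin that binds activins and myostatin and does not bind the heparan sulfate of the cell surface. It went the other way, with 1.83, 1.68 and 1.37 CPM in CD34hi and 24.2, 17.1 and 18.7 CPM in CD34lo libraries. The populations were far apart, and the CD34hi libraries still had 61 to 82 counts of the gene each, above the floor of 3. *Fstl3* averaged 1.63 ± 0.238 CPM (SD, n = 3) in CD34hi and 20.01 ± 3.71 CPM (SD, n = 3) in CD34lo, and was 12.3-fold higher in CD34lo (log2 fold change -3.62, standard error 0.20, adjusted p = 6.43e-06 in edgeR). The log2 difference was -3.69, -3.31 and -3.73 in the 3 pools, and 2.82% of all genes had a larger absolute change. *Prss57*, which overlaps *Fstl3* on the opposite strand, had 295 counts in all against 2575 for *Fstl3*, and the library kit does not mark strand, so reads of the overlap cannot be assigned.

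As both proteins bind activins, their transcripts were also compared with each other, per gene length. RPKM are the same normalized counts divided by the gene length in kilobases. The ratio of *Fst* to *Fstl3* was 192, 180 and 160 in the CD34hi libraries of pools 1, 2 and 3, and 3.21, 6.97 and 4.64 in the CD34lo libraries. On the log2 scale this ratio was 7.47 ± 0.13 (SD, n = 3) in CD34hi and 2.23 ± 0.56 (SD, n = 3) in CD34lo, a difference of 5.23. The separation of the populations in this ratio follows from that of the 2 genes themselves and is given as a description. *Fst* remained the more abundant of the pair in all 6 libraries. Their summed level was 150 ± 34.6 RPKM (SD, n = 3) in CD34hi and 58.7 ± 9.73 RPKM (SD, n = 3) in CD34lo.

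*Chrdl1* (gene 83453, chromosome X, 143285674 to 143394262) encodes chordin-like 1, a secreted protein with chordin's cysteine-rich repeats that binds BMPs. The CD34hi libraries had 291, 277 and 355 CPM of it and the CD34lo libraries 105, 166 and 173 CPM, without overlap. Its means were 308 ± 41.3 CPM (SD, n = 3) and 148 ± 37.1 CPM (SD, n = 3), which is a 2.08-fold difference (log2 fold change 1.05 ± 0.20 (standard error), adjusted p = 0.00355 in edgeR). All 3 pools went the same way, with log2 differences of 1.46, 0.74 and 1.04.

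*Chrd* (gene 12667, chromosome 16, 20733127 to 20742384) encodes chordin itself, which binds BMPs and is cut by tolloid proteases, whereupon the ligand is set free. It was found at 45.9, 44.6 and 41.2 CPM in CD34hi and at 27.8, 35.6 and 27.1 CPM in CD34lo libraries. The CD34hi libraries lay close together and above all CD34lo libraries. With 43.9 ± 2.47 CPM (SD, n = 3) against 30.2 ± 4.70 CPM (SD, n = 3), the difference was 1.45-fold (log2 fold change 0.54, standard error 0.13, adjusted p = 0.0134 in edgeR). The call was lost without pool 1, with an adjusted p of 0.111 in edgeR at a log2 fold change of 0.48. *Thpo* overlaps *Chrd* on the opposite strand and had 277 counts in all against 8879. Per gene length, the ratio of *Chrdl1* to *Chrd* was 3.41 ± 0.654 (SD, n = 3) in CD34hi and 2.39 ± 0.635 (SD, n = 3) in CD34lo. The libraries of the populations overlapped in this ratio. By pool it was 3.06, 3.01 and 4.17 in CD34hi and 1.83, 2.26 and 3.08 in CD34lo, higher in CD34hi within each pool.

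*Twsg1* (gene 65960, chromosome 17, 65923065 to 65951187) encodes twisted gastrulation, a secreted protein that forms complexes with chordin and BMPs and can hinder or favour signalling depending on chordin's cleavage. Its levels were 271, 262 and 314 CPM in CD34hi and 142, 217 and 229 CPM in CD34lo libraries. No CD34lo library reached the lowest CD34hi library. The means of 282 ± 27.9 CPM (SD, n = 3) and 196 ± 46.9 CPM (SD, n = 3) gave a log2 fold change of 0.53 ± 0.19 (standard error), with a 95% confidence interval of 0.10 to 0.95 and an adjusted p = 0.0563 in edgeR, which missed the threshold. With the mouse pool as a block, the log2 fold change was 0.55 and passed (adjusted p = 0.0140 in edgeR). The CD34lo library of pool 1 lay below its replicates, as it also did for *Chrdl1* and *Fst*, and the log2 difference was 0.93 in pool 1 against 0.28 and 0.46 in pools 2 and 3.

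*Nog* (gene 18121, chromosome 11, 89300638 to 89302559) encodes noggin, which encloses BMPs such as BMP2, BMP4 and BMP7 and blocks both of their receptor-binding surfaces. It was rare, with 13, 14 and 5 counts in the CD34hi libraries of pools 1, 2 and 3 and 155, 58 and 33 counts in the CD34lo libraries. In CPM these were 0.291, 0.386 and 0.110 against 2.86, 2.09 and 1.06, so that all CD34hi libraries lay below all CD34lo libraries, and the gene passed the filter on low counts through the CD34lo libraries. *Nog* averaged 0.262 ± 0.140 CPM (SD, n = 3) in CD34hi and 2.00 ± 0.902 CPM (SD, n = 3) in CD34lo, 7.74-fold higher in CD34lo (log2 fold change -2.95, standard error 0.53, adjusted p = 0.00272 in edgeR). Its 95% confidence interval, from -4.17 to -1.74, was the widest of the 7 genes.

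*Bambi* (gene 68010, chromosome 18, 3507957 to 3516404) encodes a membrane protein that resembles a type I receptor but lacks the kinase domain, and it is itself a known target of BMP signalling. It had 34.1, 26.4 and 20.7 CPM in CD34hi and 32.6, 30.9 and 22.1 CPM in CD34lo libraries. The libraries of the populations overlapped throughout, and pool 3 was the lowest in both. The means were 27.1 ± 6.74 CPM (SD, n = 3) and 28.5 ± 5.60 CPM (SD, n = 3), and the log2 fold change of -0.077 ± 0.21 (standard error) did not pass the edgeR test (adjusted p = 0.807), with a 95% confidence interval from -0.55 to 0.40. With the mouse pool as a block this interval narrowed to -0.35 to 0.19.

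*Grem1* (gene 23892, chromosome 2, 113748675 to 113758648) encodes gremlin 1, a BMP antagonist of the DAN family, and had 5, 10 and 1 counts in CD34hi and 9, 7 and 2 counts in CD34lo libraries. *Sostdc1* (gene 66042, chromosome 12, 36314169 to 36318452), whose product binds BMPs and also acts on Wnt co-receptors, had 0, 4 and 2 counts in CD34hi and 11, 5 and 0 counts in CD34lo libraries. Several of these values were at or under the floor of 3 counts, and neither gene passed the filter. When the filter was left out, their adjusted p-values were 0.888 and 0.505 in edgeR, and a difference was not detectable at this depth.

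**Figure D2:**
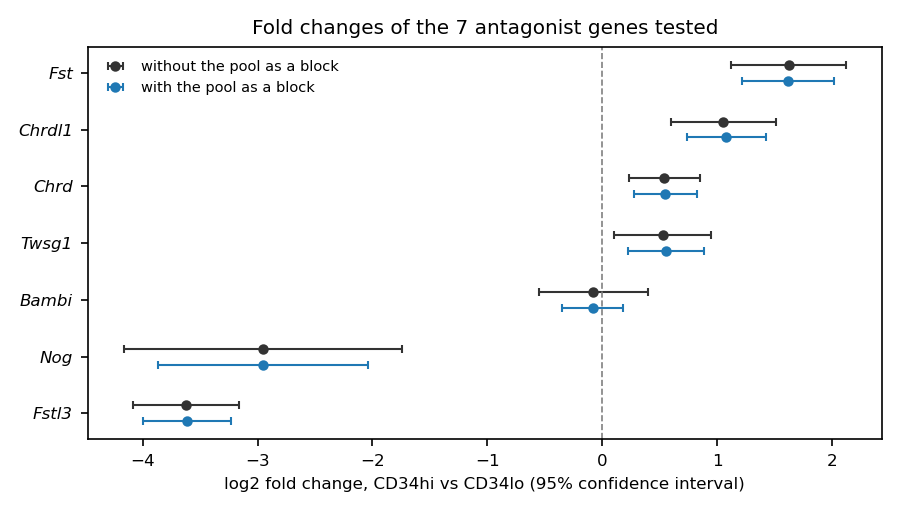
Log2 fold changes (CD34hi vs CD34lo) of the 7 antagonist genes tested, with 95% confidence intervals from edgeR, without and with the mouse pool as a block. *Fstl3* and *Nog* lay at -3.62 and -2.95, *Fst* at 1.62, and the intervals of *Bambi* included 0.

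Per gene length, *Fst* had the highest mean level of the 9 genes in CD34hi fibroblasts, at 149 ± 34.5 RPKM (SD, n = 3), followed by *Twsg1* at 69.8 ± 6.90 and *Chrdl1* at 45.4 ± 6.09 RPKM. *Chrd* (13.4 ± 0.754), *Bambi* (5.37 ± 1.34), *Fstl3* (0.834 ± 0.122) and *Nog* (0.137 ± 0.0729) came next, each apart from its neighbour beyond the spread of the libraries, whereas *Nog*, *Grem1* (0.0833 ± 0.0786) and *Sostdc1* (0.0294 ± 0.0317) were within it. In CD34lo fibroblasts, *Fst* and *Twsg1* had the same mean level, 48.5 ± 11.2 and 48.5 ± 11.6 RPKM (SD, n = 3), and *Chrdl1* followed at 21.9 ± 5.48 RPKM. *Fstl3* (10.2 ± 1.90) and *Chrd* (9.22 ± 1.44) stood next to each other there within their spread, above *Bambi* (5.66 ± 1.11) and *Nog* (1.04 ± 0.469). *Fstl3* was thus above *Bambi* in CD34lo and below it in CD34hi fibroblasts.

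Added together, the 9 genes had 312, 281 and 260 RPKM in the CD34hi and 120, 166 and 149 RPKM in the CD34lo libraries of pools 1, 2 and 3. *Fst* held 52.1% ± 7.77 (SD, n = 3) of the sum in CD34hi and 33.3% ± 3.51 (SD, n = 3) in CD34lo. The share of *Fstl3* was 0.292% ± 0.0200 (SD, n = 3) in CD34hi and 7.35% ± 2.67 (SD, n = 3) in CD34lo. *Fst*, *Chrdl1* and *Twsg1* jointly made up 93.0% ± 0.229 (SD, n = 3) of the sum in CD34hi and 81.4% ± 4.93 (SD, n = 3) in CD34lo. The 6 genes grouped at the outset as BMP-binding do not include *Fst*, whose product also binds some BMPs. These 6 summed to 129 ± 12.2 RPKM (SD, n = 3) in CD34hi and 80.8 ± 17.1 RPKM (SD, n = 3) in CD34lo. *Twsg1* and *Chrdl1* weighed most in this sum.

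**Figure D3:**
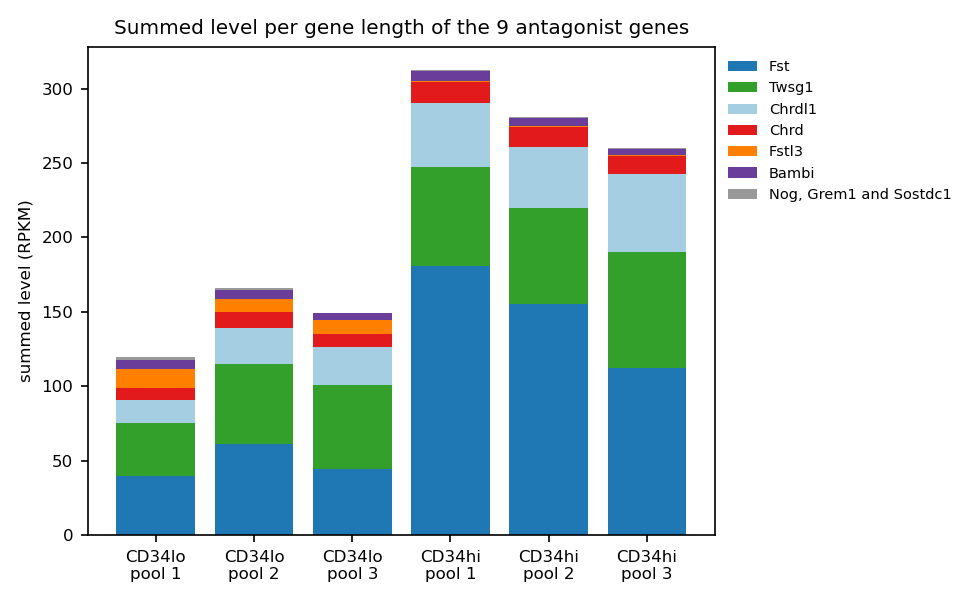
Summed level of the 9 antagonist genes per library in RPKM, stacked by gene. The CD34hi bars reach 260 to 312 RPKM and the CD34lo bars 120 to 166 RPKM, and the *Fstl3* band is visible in the CD34lo bars.

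The pattern of *Fst* over the 6 libraries was most like that of *Rarg*, *Dhrs7* and *Me1* (Pearson's r of log2 CPM of 0.995, 0.994 and 0.994), and that of *Fstl3* was most like *Ezr*, *Gcnt2* and *Pdzrn3* (0.999 for each), among 8823 well-expressed genes outside the lists. These values are a description over 6 libraries that fall into 2 populations, and 5.97% of the genes had an r above 0.95 with *Fst* and 7.66% with *Fstl3*.

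The wider pathway was examined through 71 further genes, of which 54 were tested. Of these, 14 were called towards CD34hi and 16 towards CD34lo, against 16.9% and 18.7% of all genes, and 24 did not pass. The median log2 fold change was -0.15. With the mouse pool as a block, 16 and 19 were called, against 19.6% and 20.9% of all genes. The same shares of all genes apply to the counts of each list below. Among 17 further antagonist genes, 10 were tested, with 4 called towards CD34hi and 2 towards CD34lo, and *Sost*, *Vwc2l*, *Fstl4* and *Fstl5* had 0 counts in all libraries. The genes higher in CD34hi were *Fstl1*, which encodes an abundant secreted glycoprotein related to follistatin (5417 ± 459 against 2058 ± 190 CPM, SD, n = 3, log2 fold change 1.396), *Crim1* (1.41), *Kcp* (1.14) and *Nbl1* (0.49). The genes higher in CD34lo included *Bmper*, which encodes a chordin-related BMP-binding protein (48.3 ± 3.86 CPM in CD34hi and 168 ± 5.502 CPM in CD34lo, SD, n = 3, log2 fold change -1.80).

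The tolloid proteases cut chordin. Of the 3 genes, *Bmp1* and *Tll1* were higher in CD34hi, as *Chrd* was, with log2 fold changes of 1.02 and 1.62, and *Tll2* did not pass (-1.25). *Bmp1* had 957 ± 62.0 CPM (SD, n = 3) in CD34hi and 471 ± 43.2 CPM (SD, n = 3) in CD34lo fibroblasts.

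Of 21 ligand genes, 14 were tested, and 6 were called in each direction, against 16.9% of all genes towards CD34hi and 18.7% towards CD34lo. *Bmp2*, *Bmp3*, *Bmp6*, *Bmp7*, *Bmp8a* and *Mstn* were higher in CD34hi, with log2 fold changes of 1.54, 4.48, 3.61, 1.24, 7.13 and 2.54. *Mstn* (myostatin) rested on 10 to 18 counts per CD34hi library and 0 to 7 per CD34lo library, with a 95% confidence interval from 0.58 to 4.49. It passed the filter on low counts through the CD34hi libraries. Its call (adjusted p = 0.048 in edgeR) was lost when the filter was left out (adjusted p = 0.0656 in edgeR). *Bmp8a* shares sequence on the same strand with *Oxct2a*, which had 264 counts in all against 2762 for *Bmp8a*. In the CD34lo libraries *Bmp8a* had 2, 15 and 0 counts, and the gene passed the filter on low counts through the CD34hi libraries. The size of its fold change thus rests on very few CD34lo reads (95% confidence interval from 5.41 to 8.85). *Bmp5*, *Gdf2*, *Gdf10*, *Gdf11*, *Inhba* and *Inhbb* were higher in CD34lo, with log2 fold changes of -3.10, -3.86, -2.81, -1.05, -2.19 and -1.28. *Gdf2* had 1, 1 and 5 counts in CD34hi and 27, 26 and 35 counts in CD34lo libraries, so that it passed the filter through the CD34lo libraries, and its 95% confidence interval reached from -5.37 to -2.35. The activin subunit genes, whose products are bound by Fst and Fstl3, were low throughout. *Inhba* had 0.291, 0.248 and 0.265 CPM in CD34hi and 0.812, 0.899 and 2.03 CPM in CD34lo libraries, and *Inhbb* had 1.16, 1.60 and 3.31 CPM in CD34hi and 4.19, 4.14 and 6.46 CPM in CD34lo libraries. *Bmp4* did not pass, at 24.6 ± 3.10 CPM (SD, n = 3) in CD34hi and 29.3 ± 6.14 CPM (SD, n = 3) in CD34lo, a log2 fold change of -0.25.

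Of 14 receptor and co-receptor genes, 12 were tested. None was called towards CD34hi and 3 were called towards CD34lo, against 16.9% and 18.7% of all genes, or 35.6% in either direction. With the mouse pool as a block, 2 and 4 were called, against 19.6% and 20.9% of all genes. *Acvr2a* and *Acvr1* were higher in CD34lo, with log2 fold changes of -0.995 and -0.51, and so was *Bmpr1b* (-3.40). *Bmpr1b* had 2, 0 and 4 counts in CD34hi and 25, 17 and 16 in CD34lo libraries, with a 95% confidence interval from -4.98 to -1.82. It passed the filter on low counts through the CD34lo libraries. *Orc4* overlaps *Acvr2a* on the opposite strand, with 6557 counts in all against 16699. *Bmpr1a* and *Bmpr2*, receptors for BMPs, missed the threshold at 0.22 and -0.077 on the log2 scale. Of the 6 Smad genes, *Smad1* (log2 fold change 1.29) and *Smad5* (0.36) were higher in CD34hi, and *Smad2*, *Smad3*, *Smad4* and *Smad9* did not pass. With the mouse pool as a block, *Smad3* was called towards CD34lo (log2 fold change -0.37, adjusted p = 0.0258 in edgeR).

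Known BMP target genes and the inhibitory Smads, 10 genes in all, gave 9 tested genes, of which 5 were called towards CD34lo and none towards CD34hi, with a median log2 fold change of -0.88. *Id1*, which encodes an inhibitor of basic helix-loop-helix factors and is a common readout of BMP signalling, had 9.75, 10.5 and 11.0 CPM in CD34hi and 120, 89.7 and 104 CPM in CD34lo libraries, which gave -3.33 ± 0.14 (log2 fold change and its standard error, adjusted p = 2.13e-06 in edgeR). *Hey1*, *Id4*, *Msx1* and *Id3* were also higher in CD34lo, with log2 fold changes of -2.71, -1.19, -1.03 and -0.88. *Id2*, *Smad6*, *Smad7* and *Atoh8* missed the threshold, at log2 values of -0.28, -0.53, -0.14 and -0.16, of which *Smad6* was called towards CD34lo with the mouse pool as a block (adjusted p = 0.0296 in edgeR). These genes also respond to other pathways, as *Hey1* does to Notch, and signalling itself was not measured.

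**Figure D4:**
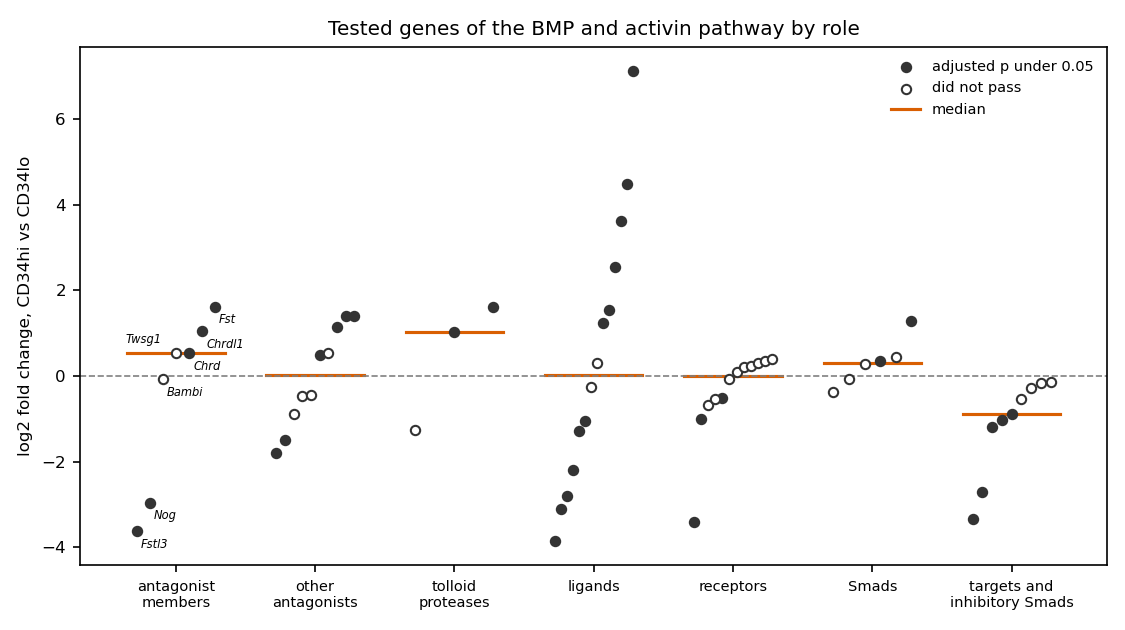
Log2 fold changes (CD34hi vs CD34lo) of the tested genes by role, from edgeR, filled where the adjusted p-value was under 0.05 and open where it was not, with the median of each group as a line. Antagonists and ligands lie on both sides of 0, whereas the called target genes lie below it.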

How the data were processed

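Polyadenylated RNA of sorted fibroblasts was sequenced from TruSeq libraries. The authors aligned the reads to GRCm38/mm10, counted them per gene with Rsubread and deposited raw counts without normalization. The annotation, strand setting and handling of multi-mapped reads are not given in the sources used here. Symbols were assigned by gene identifier from RefSeq for 25275 of 27179 genes. In R 4.3.3 with edgeR 4.0.16, genes were filtered (filterByExpr, 15219 kept), TMM-normalized (factors 0.967 to 1.04) and tested by quasi-likelihood F test, CD34hi against CD34lo, with Benjamini-Hochberg adjustment over all genes, and called at 0.05. The standard error of a fold change was taken as its size on the log2 scale over the root of its F value. Log2 CPM used a prior count of 2.

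Same-numbered libraries come from the same mice, and across genes their deviations correlated with r of 0.279, 0.0844 and 0.243. The replicates were pools of different mice and differed by more than sampling noise (chi-square per degree of freedom at least 23.9). The test was also checked on simulated counts with known changes. It recovered 74 of 100 genes changed by 1 on the log2 scale and 100 of 100 changed by 2, and 6.45% of its calls were false. Smaller changes were not simulated. Alternatives were limma-voom (limma 3.58.1, the study's test), DESeq2 1.42.0, other normalizations and filters, thinned counts, the pool as a block, stricter thresholds, and each pool or library left out. All 9 members are named, as are called genes of the pathway lists, at most 6 per list, those that failed where a member acts on them, and for the largest change in each direction the 3 genes most alike. The members and lists were chosen with earlier results of these data known. Some genes of the lists are counted but not reported here by name.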

Additional observations from a re-analysis of the deposited data

How the results depend on the processing

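The number of antagonists called between CD34hi and CD34lo was 5 and lay between 4 and 6 in all 20 alternatives, with 4 to 6 when 1 pool or 1 library was dropped, 2 to 4 towards CD34hi and 2 towards CD34lo. Where each library had to hold 10 counts or more, 1 antagonist was called towards CD34lo instead of 2, because *Nog* was then not tested. Of 139 comparisons for the 7 genes, 128 changed neither in direction nor in call, 3 lost the call, 5 gained it and 3 reversed. *Fst*, *Chrdl1*, *Fstl3* and *Nog* kept direction and call in every alternative that tested them. *Chrd* lost its call without pool 1 and under the 2 stricter thresholds. *Twsg1* gained one with DESeq2, without a filter, with the replicate block (in edgeR, then limma-voom), and without the CD34lo library of pool 3 (adjusted p-values of 0.0270, 0.0378, 0.0140, 0.00835 and 0.0461). The replicate block changed no other call among the 9 genes. *Bambi* turned towards CD34hi without pool 2, without the CD34hi library of pool 3 and without the CD34lo library of pool 1 (log2 fold changes of 0.0038, 0.090 and 0.058), and spanned -0.25 to 0.090 when 1 pool or 1 library was dropped. The cause was not tested.

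Over all genes, 5411 were called. At an adjusted p-value under 0.01 there were 3444 (1559 towards CD34hi and 1885 towards CD34lo), and where the log2 fold change also had to reach 1 in size there were 2986 (1164 and 1822), fewer by construction. Leaving out a pool or a library gave 3468 to 5236 (1608 to 2456 and 1860 to 2780), with the lowest number without pool 1, and 1656 towards CD34hi without pool 2. Low counts limited *Grem1* and *Sostdc1*, which did not pass the filter, and *Nog*, which rested on 5 to 14 counts per CD34hi library.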
